A study of Mus musculus with 6 samples.

Results

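Ildr2 and Col6a3 are 2 of the 19848 genes in the RNA table of a single-cell study of mouse brain immune cells. They were selected on their SCT values in microglia, which were higher at 72 weeks than at 12 weeks, so that difference is given below as a description with no test, in both arms. The cells came from brains of female C57BL/6 mice aged 12 weeks (young) or 72 weeks (aged). At each age, 6 mice had received vehicle and kept their gut microbiota (control), and 6 had received antibiotics that depleted it (antibiotic). The 6 brains of each group were collapsed into 3 pools, each marked with 1 hashtag antibody, so the pool is the replicate. Comparisons between ages or arms use the 12 pools, and those between cells of one well use its 6 pools. Brain suspensions were enriched for immune cells on a Percoll gradient and stained with DNA-tagged antibodies (CITE-seq, which reads RNA and surface proteins of the same cell). All young pools were loaded in one 10x Genomics well and all aged pools in another, so age and well cannot be told apart.

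The files hold 13052 cells, 6526 in each well, assigned by the authors to 10 cell types. Microglia, the resident macrophages of the brain, make up 9403 of them, 5044 young and 4359 aged. The RNA values are SCT-corrected counts, that is, unique molecular identifiers (UMIs, one per captured RNA molecule) adjusted by the authors' regression to what a cell of typical depth would give. Pools held 760 to 1590 cells, with median raw totals of 6512 to 7226.5 UMIs per cell. The microglia label was set beside defining genes. This is no independent check, since the authors called the types from the same cells. P2ry12 was above 0 in 99.7% of young and 99.2% of aged microglia, against 33.4% and 20.6% of lymphocytes (CD8+, CD4+, B cells and ILCs), with mean SCT values of 11.6 and 9.52 against 0.735 and 0.394. Tmem119 was above 0 in all microglia of both wells. The wells shared 59 cell barcodes, and 10 of the cells that carry them were microglia.

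Ildr2 encodes a membrane protein of the angulin family, related to Lsr and Ildr1, whose members sit where 3 epithelial cells meet and recruit tricellulin (Marveld2) to that junction. The protein also has an immunoglobulin-like domain resembling those of the B7 family of T cell regulators. Col6a3 encodes a chain of collagen VI, a beaded-filament collagen of the extracellular matrix that is assembled with the chains of Col6a1 and Col6a2 and is typically made by fibroblasts. Neither gene is a textbook marker of microglia.

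Both genes lie on mouse chromosome 1. In RefSeq (GRCm38.p6, the assembly also called mm10), Ildr2 spans 166254060 to 166316832 and Col6a3 spans 90766860 to 90844001, and no other listed gene overlaps either. Because both were higher in one cell type, a stretch around an annotated transcript start of each is shown, from 250 bases before to 50 bases after, 5' to 3' on the strand of the gene. These starts, at 166254139 for Ildr2 and 90843971 for Col6a3, lie inside the gene spans, and positions are counted from them. Ildr2 is on the plus strand and the stretch is chr1:166253889-166254188. Col6a3 is on the minus strand and the stretch is chr1:90843922-90844221. Capitals mark the letters GGGCGG (a GC box) and GAGGAAG (a core bound by PU.1, a factor that directs myeloid cell identity), each searched on both strands.
Ildr2: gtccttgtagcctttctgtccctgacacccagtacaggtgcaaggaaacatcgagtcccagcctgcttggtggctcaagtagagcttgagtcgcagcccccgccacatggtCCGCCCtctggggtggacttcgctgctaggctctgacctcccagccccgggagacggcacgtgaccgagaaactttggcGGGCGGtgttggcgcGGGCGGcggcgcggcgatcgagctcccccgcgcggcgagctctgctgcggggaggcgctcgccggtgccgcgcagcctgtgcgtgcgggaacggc
Col6a3: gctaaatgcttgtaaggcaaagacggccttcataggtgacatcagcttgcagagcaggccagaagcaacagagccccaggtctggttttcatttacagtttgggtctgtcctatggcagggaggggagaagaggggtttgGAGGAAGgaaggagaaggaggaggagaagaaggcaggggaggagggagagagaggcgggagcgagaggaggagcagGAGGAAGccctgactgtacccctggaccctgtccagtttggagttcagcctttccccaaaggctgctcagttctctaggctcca
The 2 stretches differed in makeup. That of Ildr2 was 69.0% G and C with 32 CG pairs, against medians of 52.7% and 7 over 32851 RefSeq promoters of this length. That of Col6a3 was 56.3% G and C with 3 CG pairs. Ildr2 held 3 GC boxes, at -139, -60 and -45 from the start, one of them (-139) on the other strand, and no PU.1 core. Col6a3 held 2 PU.1 cores, at -110 and -34, and no GC box. Of all promoters, 35.7% held a GC box and 13.6% a PU.1 core. Neither stretch held TATAAA (13.6% of promoters), CCAAT (37.4%), the AP-1 letters TGANTCA (7.81%) or the core of the interferon response element (3.44%). These matches describe the letters only.

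Ildr2 was higher in every aged pool of microglia than in every young pool, in both arms. The genes were chosen for this direction, and the share of all genes separated in this way is not given. Nothing is read from the separation. In control microglia its mean SCT value per cell was 0.0585, 0.0262 and 0.0612 in the young pools and 0.331, 0.274 and 0.382 in the aged pools. In antibiotic microglia it was 0.0616, 0.0631 and 0.0447 in the young pools and 0.397, 0.387 and 0.385 in the aged pools. The lowest aged pool was thus above the highest young pool, and the 3 aged antibiotic pools lay close together. In the control pools the group means were 0.0487 ± 0.0195 (SD, n = 3) and 0.329 ± 0.0540 (SD, n = 3), a log2(mean + 0.05) difference of 1.95. Only Igkc, an immunoglobulin light chain gene, had a larger difference there (2.64), and the next gene below was Hcar2 (1.65).

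Col6a3 was lower overall and separated the ages too, and nothing is read from that either. In control microglia its mean SCT value per cell was 0.0217, 0.0344 and 0.0204 in the young pools and 0.160, 0.161 and 0.151 in the aged pools. In antibiotic microglia it was 0.0120, 0.0223 and 0.0261 in the young pools and 0.133, 0.134 and 0.118 in the aged pools. No young pool reached an aged one, and within the aged well each antibiotic pool was below each control pool. The control means were 0.0255 ± 0.00776 and 0.157 ± 0.00559 (SD, n = 3 each), a log2 difference of 1.46, between those of Hcar2 and Vcam1 (1.33).

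**Figure D1:**
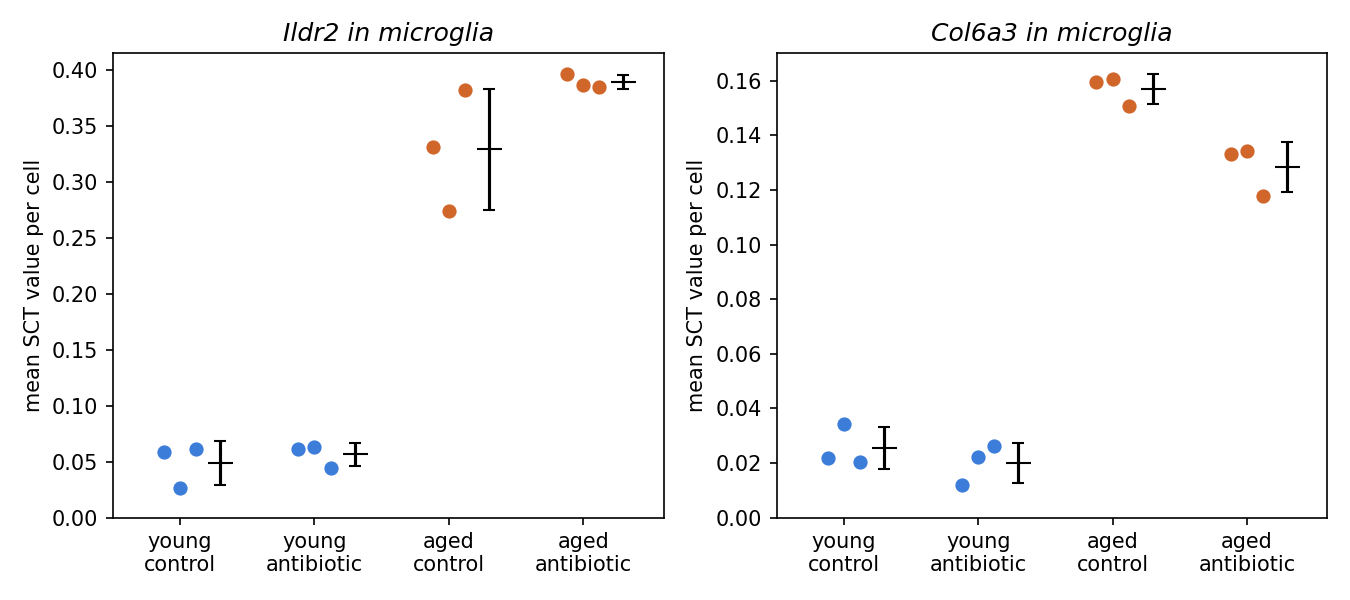
Mean SCT value per cell (y axis) of Ildr2 (left) and Col6a3 (right) in the microglia of each pool, by group (x axis). Points are pools, and the bar beside them is the mean with the SD of 3 pools. For Ildr2 the aged pools lie between 0.274 and 0.397 and the young pools between 0.0262 and 0.0631. For Col6a3 they lie between 0.118 and 0.161 and between 0.0120 and 0.0344.

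In the antibiotic pools, which were loaded in the same 2 wells, the difference was of like size. Ildr2 went from 0.0565 ± 0.0102 in young to 0.390 ± 0.00620 in aged pools (SD, n = 3 each), 2.05 on the log2(mean + 0.05) scale. Col6a3 went from 0.0202 ± 0.00732 to 0.128 ± 0.00919 (SD, n = 3 each), 1.35 on this scale. The added 0.05 shrinks these differences, and the plain ratios of the group means were 6.90 and 6.38, against 6.77 and 6.16 in the control pools. Over all genes, limma called 539 of 8759 between the ages in antibiotic pools at an adjusted p under 0.05 (6.15%), 434 higher with age (4.95%) and 105 lower (1.2%). Both genes are among the 434, and nothing is read from that, since they were chosen for higher values in aged microglia and Col6a3 passed the filter on low values (a mean of at least 0.05) only through the aged pools. Microglia labels cover several of the authors' clusters, and in cluster 0, which holds 4446 young and 3595 aged microglia, the log2 differences in antibiotic pools were 2.15 and 1.43.

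The share of cells with a value was higher in the aged well as well. Ildr2 was above 0 in 4.30% of young microglia (217 of 5044, exact 95% interval 3.76 to 4.90%) and in 26.1% of aged microglia (1138 of 4359, 24.8 to 27.4%). Over pools the share was 2.46 to 5.2% in the young well, 20.4 to 27.1% in aged control pools and 27.8 to 29.5% in aged antibiotic pools. Col6a3 was above 0 in 2.14% of young microglia (108 cells, 1.76 to 2.58%) and in 11.1% of aged microglia (484 cells, 10.2 to 12.1%). Its pool shares were 1.20 to 2.95% in the young well, 11 to 12.7% in aged control pools and 10.0 to 10.7% in aged antibiotic pools. Most positive aged cells held a value of 1, 72.9% of them for Ildr2 and 80.4% for Col6a3, and the highest values were 8 and 9. An SCT value above 0 is not the same as a captured UMI, since the correction scales shallow cells up and can set single UMIs of deep cells to 0. The intervals cover the counting of cells only.

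The shares depended on depth in both wells, and the aged share was the higher one in each depth range. Among microglia with under 4000 raw UMIs, Ildr2 was above 0 in 1.71% of young and 9.87% of aged cells. From 4000 to 12000 UMIs the shares were 4.47% and 28.6%, and above 12000 they were 7.41% and 43.5%. For Col6a3 the shares were 0.47% and 4.09%, then 2.21% and 12.8%, then 4.63% and 12.1%. The median raw total was 7118 UMIs in aged and 6809 in young microglia. After each cell was thinned to an SCT total of 4000, Ildr2 was above 0 in 2.58% of young and 16.8% of aged microglia, and Col6a3 in 1.11% and 6.63%.

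**Figure D2:**
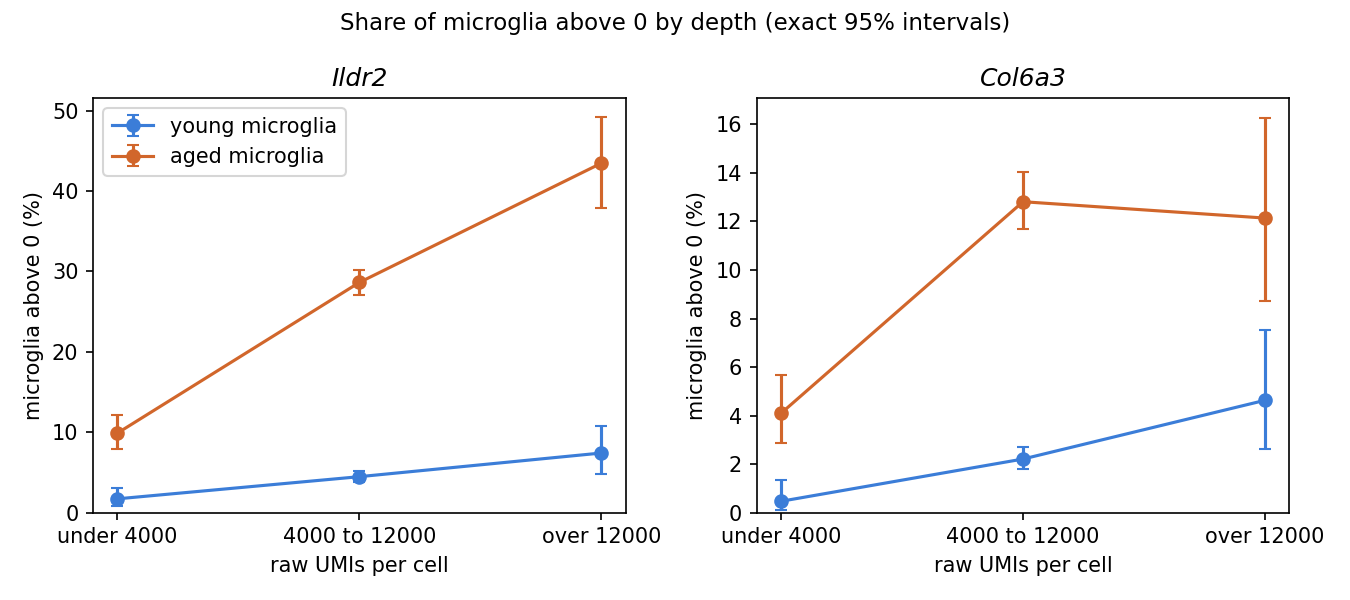
Share of microglia with a value above 0 (y axis, %) in 3 ranges of raw UMIs per cell (x axis), for Ildr2 (left) and Col6a3 (right). Points are all microglia of a well with exact 95% intervals, and lines join the young and the aged well. The aged well is higher in each range, 43.5% against 7.41% for Ildr2 above 12000 UMIs, and the share of Col6a3 in the aged well does not rise from the middle range (12.8%) to the top one (12.1%).

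Among the authors' cell types, the share of cells above 0 was highest in microglia for both genes in both wells. By mean SCT value, Col6a3 in the young well was 0.025 in border-associated macrophages (4 positive cells) and 0.0230 in microglia. Microglia were 66.8% of aged cells and held 95.4% of the summed Ildr2 value and 97.8% of the summed Col6a3 value of that well. In the young well they were 77.3% of cells and held 94.0% and 95.1%. All other types together had Ildr2 above 0 in 57 of 2167 aged cells (2.63%, exact 95% interval 2.00 to 3.39%) and 12 of 1482 young cells (0.810%, 0.419 to 1.41%). For Col6a3 they had 12 aged cells (0.554%, 0.286 to 0.965%) and 4 young cells (0.270%, 0.0736 to 0.690%).

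Border-associated macrophages (labelled BAM), which line the meninges and vessels, came next by share over all cells. Of 266 aged BAM 6.02% had an Ildr2 value, as did 2.50% of the 240 young ones, and for Col6a3 the shares were 2.63% and 1.67%. Ildr2 then followed in Ly6CLow myeloid cells (3.61% of 360 aged and 0.730% of 274 young cells) and in Ly6CHigh cells (2.43% of 247 aged and 0 of 142 young cells, which allows up to 2.11%). Many aged Ly6CHigh cells were shallow, and of the 112 with at least 2000 raw UMIs 5.36% had an Ildr2 value, against 4.88% of Ly6CLow cells and 6.48% of BAM at that depth. Its aged shares were 2.11% in CD4+ cells, 2.06% in B cells, 1.77% in CD8+ cells, 1.14% in ILCs (innate lymphoid cells) and 0.901% in Ly6C+Ly6G+ cells. The exact intervals of these aged shares below BAM all overlap, so their order is not resolved. Col6a3 was at 0 in all 360 aged and 274 young Ly6CLow cells, which allows shares of up to 0.833% and 1.09%, and in all Ly6CHigh and Ly6C+Ly6G+ cells of both wells. It was above 0 in 2 of 622 aged CD8+ cells and in 1 aged cell each of the CD4+, B cell and ILC types. The 1 aged and 8 young NK cells had neither gene.

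**Figure D3:**
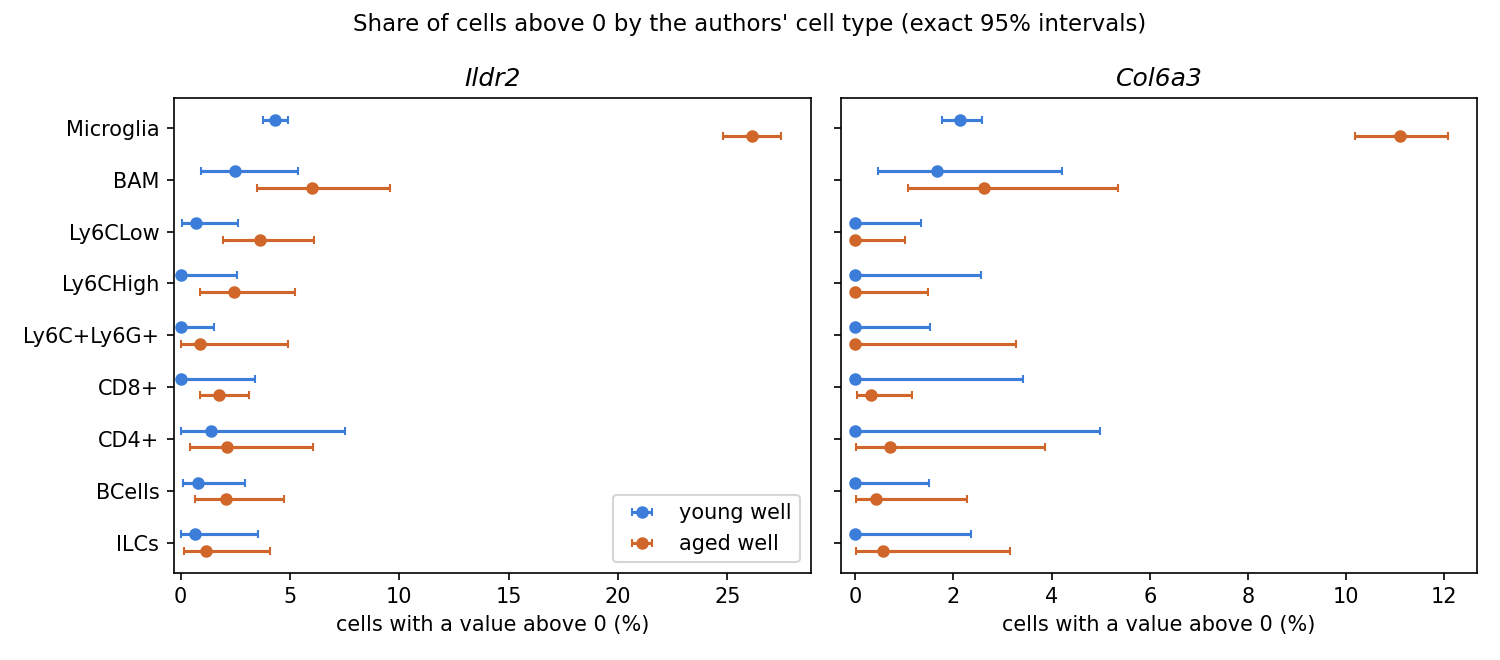
Share of cells with a value above 0 (x axis, %) for Ildr2 (left) and Col6a3 (right) in the authors' cell types (y axis), with exact 95% intervals, by well. Aged microglia stand at 26.1% and 11.1%, and no other type exceeds 6.02% and 2.63%.

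Outside microglia no age difference passed the test. Over types with enough cells, 13 exact two-sided permutation tests of pool means were run, with the age labels permuted within arms, and 0 of 13 passed at an adjusted p under 0.05 (0.0%). The lowest was Ildr2 in CD8+ cells, at 0 in all 6 young pools and above 0 in all 6 aged pools (mean 0.0249 ± 0.0162, SD), with an exact permutation p of 0.005, the smallest this design can give, and an adjusted p of 0.065. The 6 young pools held only 106 CD8+ cells against 622 aged ones. A lone test at the smallest p adjusts to 0.065 over 13 tests, so a single type could not pass. The 0 of 13 therefore does not show that age differences are absent. In Ly6CLow cells Ildr2 was 0.00673 ± 0.0104 in young and 0.0447 ± 0.0406 in aged pools (SD, n = 6 each, exact permutation p = 0.05, adjusted p = 0.325). In BAM it was 0.0411 ± 0.0378 and 0.0737 ± 0.0677 (SD, n = 6 each, exact permutation p = 0.355, adjusted p = 0.929). Depth differed in some types, most in Ly6CHigh cells, whose median raw total was 951 UMIs in the aged and 13257.5 in the young well. In cells with at least 2000 raw UMIs no test passed either. Ildr2 in Ly6CHigh cells was then 0.0747 in aged and 0 in young pools (exact permutation p = 0.2, adjusted p = 0.75), and in Ly6CLow cells 0.0571 and 0.00695 (exact permutation p = 0.025, adjusted p = 0.15).

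RNA set free from broken cells can give any cell type values of genes it does not express, so genes of known source were set beside the pair. Igkc, made by B-lineage cells, was above 0 in 79.8% of aged B cells and in 27.9% (Ly6CHigh) to 57.1% (CD8+) of the other aged types with over 100 cells, with 50.3% in microglia. In young microglia it was above 0 in 6.82%. Its mean in aged CD8+ (30.0) and Ly6CLow cells (26.6) was far above that in microglia (0.916). S100a8, made by neutrophils, was above 0 in 99.1% of aged Ly6C+Ly6G+ cells, 14.1% of aged and 39.1% of young microglia, and the hemoglobin gene Hbb-bs in 40.6% and 54.3% of microglia. Ildr2 and Col6a3 were above 0 in 26.1% and 11.1% of aged microglia and in 1.78% and 0.423% of the 1182 aged lymphocytes. The part of free RNA in the shares of Ildr2 and Col6a3 was not tested. Their level outside microglia was also set against that of the defining microglial genes. In aged BAM the mean SCT value was 20.8% of that in microglia for Ildr2 and 20.9% for Col6a3, against 21.0% for P2ry12 and 20.7% for Tmem119, with 13.1% for Sall1 and 64.4% for Fcrls at the ends. In aged lymphocytes it was 5.61% for Ildr2 and 3.53% for Col6a3, and 4.00 to 6.24% for 5 microglial genes (P2ry12, Tmem119, Sall1, Siglech and Fcrls). In aged Ly6CLow cells it was 13.8% for Ildr2, above 5.34 to 13.5% for those genes, while Col6a3 was at 0. In young BAM the proportions were 70.8% and 109%, from 6 and 4 positive cells. These proportions were not tested.

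**Figure D4:**
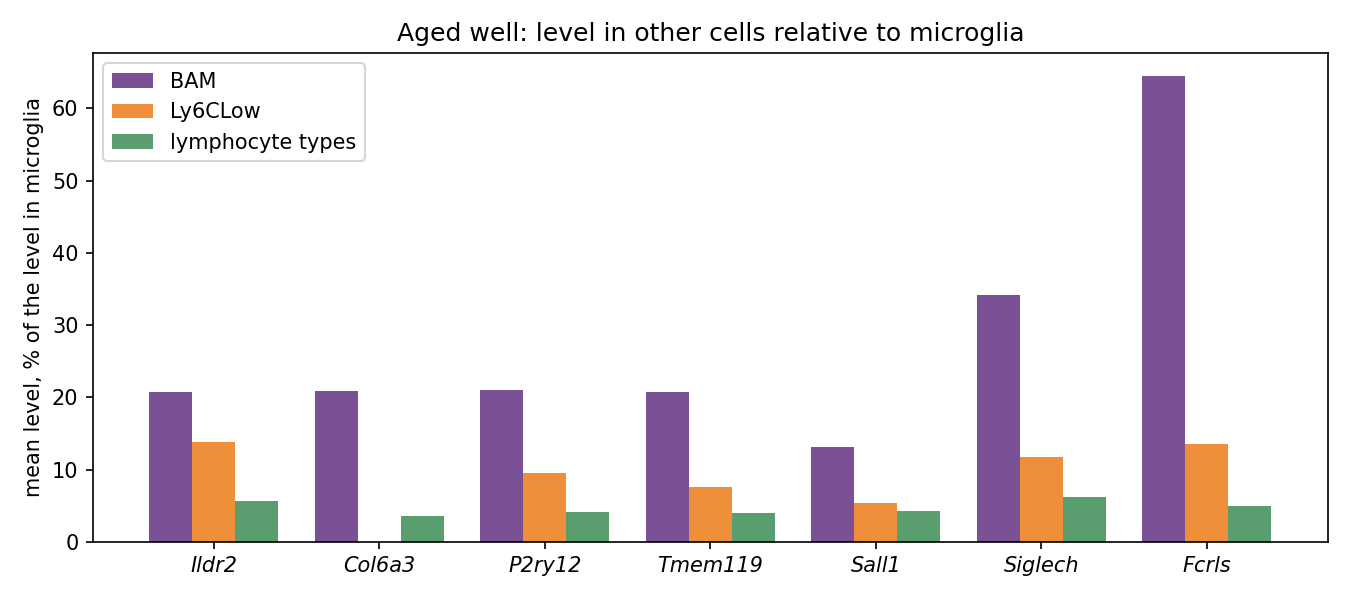
Mean SCT value in BAM, Ly6CLow cells and lymphocyte types of the aged well, as a percent of the mean in aged microglia (y axis), for Ildr2, Col6a3 and 5 genes that define microglia (x axis). Bars start at 0. In BAM Ildr2 (20.8%) and Col6a3 (20.9%) stand beside P2ry12 (21.0%) and Tmem119 (20.7%), and Col6a3 has no bar in Ly6CLow cells, where it was at 0. The BAM bars of Ildr2 and Col6a3 rest on 16 and 7 positive cells of all depths.

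No antibiotic difference in either gene passed the test. In aged microglia Ildr2 was 0.22 higher on the log2 scale in antibiotic pools (SE 0.130, limma adjusted p = 0.379), and Col6a3 was -0.21 (SE 0.105, limma adjusted p = 0.284). For both genes the 3 pools of one arm did not overlap those of the other in the aged well, as was so for 22.1% of the 8759 genes, and limma called 283 genes there (3.23%). The aged pools of this contrast are among those the genes were chosen on. In young microglia, where the pools of the arms overlapped, the differences were 0.13 and -0.11 (limma adjusted p = 0.794 and 0.785), and 12 genes were called (0.137%). Averaged over both ages they were 0.17 and -0.16 (limma adjusted p = 0.287 and 0.220), with 473 genes called (5.4%). Neither gene was called by limma for an unequal response to antibiotics at the 2 ages (0.10 and -0.11, adjusted p = 0.964 and 0.951). That contrast called 0 of 8759 genes (0.0%), with 579 at an unadjusted p under 0.05. The young means of Col6a3 were 0.0255 in control and 0.0202 in antibiotic pools, below the filter of 0.05. The gene was kept only through the aged pools, and the added 0.05 shrinks its young difference most. For Col6a3 the young, averaged and unequal-response tests therefore cannot tell whether the 2 ages responded alike.

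Partners of the 2 proteins were set beside all genes, of which limma called 4.95% higher and 1.2% lower with age in antibiotic pools. The lists are short and were not tested as sets. Of the angulin and tight junction list, 5 of the 10 other genes passed the filter on low values in microglia, and with age in antibiotic pools limma called none higher and 1 lower, the junctional adhesion molecule gene F11r (-0.32, adjusted p = 0.00601). Ildr1 was at 0.12 (adjusted p = 0.703). The median of the list was 0.09, and that of all genes 0.03. Of the B7 family 6 genes were tested and 2 rose, Cd274, which encodes PD-L1 (0.65, limma adjusted p = 0.00395), and Icosl, the ligand of ICOS (0.30, limma adjusted p = 0.0303). None of the other collagen VI chain genes in the table (Col6a1, Col6a2 and Col6a6) passed the filter, and their summed value in microglia was 0.00306 to 0.0349 per cell over the 12 pools, below that of Col6a3 alone in each aged pool. Of the collagen assembly list, which holds enzymes, proteases and an inhibitor, 7 genes were tested and none was called. The same held for 2 genes of the list of collagen VI receptors and partners, the integrin gene Itgb1 and the proteoglycan gene Dcn, and for 1 other collagen (Col27a1, -0.29, limma adjusted p = 0.0911). Of 10 fibroblast markers, 4 were tested and 1 rose, the matrix Gla protein gene Mgp (1.58, limma adjusted p = 0.00610). The markers summed to 0.392 to 0.854 per microglial cell in young pools and 0.375 to 1.77 in aged pools. Within the aged well they summed to 0.143 to 1.08 in Col6a3-positive microglia and 0.384 to 1.95 in Col6a3-negative microglia. In the same contrast 13 of 16 interferon-response genes rose (median 0.79) and 11 of 17 disease-associated genes rose (median 0.43), where 4.95% of all genes did. Of 16 homeostatic genes 4 fell (median -0.14), where 1.2% of all genes did.

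The genes whose levels were most like theirs over 18 cell type by well means were also low and mostly microglial. For Ildr2 the closest by Pearson's r of log2(mean + 0.05) among 8759 genes were Naalad2 (r = 0.943), Col6a3 (r = 0.911), Gm16118, Chst1 and Mymk. For Col6a3 they were Gm16118 (r = 0.951), Mymk, Chst8, Naalad2 and Ildr2 (r = 0.911). Naalad2, a peptidase gene, averaged 0.142 (control) and 0.109 (antibiotic) per cell in young microglia and 0.376 in both aged groups. Over the 12 microglia pools, which fall into 2 age clusters, the closest included Igkc, Uqcr10, B2m and Ebf3 for Ildr2 and were Upk1b, Gm26917, Igkc, Cers4 and Afdn for Col6a3. These likenesses share the wells and their depth. Both genes were chosen for higher values in aged microglia, which hold the highest of the 18 means for each. Their likeness to each other and to the genes named above draws on those values. The 8759 genes compared were also kept on their means in microglia. Nothing is read from these likenesses, or from the closest genes being mostly microglial.

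The 2 genes were found together more often than independence gives in aged microglia, and this call was lost at matched depth. Of 4359 cells, 146 were above 0 for both, and 126 would be if the genes were independent within pools. The share above 0 for Col6a3 was higher in Ildr2-positive than in Ildr2-negative cells in 6 of 6 aged pools, by 0.549, 2.92 and 1.97 percentage points in control pools and by 1.02, 1.92 and 8.07 points in antibiotic pools. The mean was 2.74 ± 2.74 points (SD, n = 6), with an exact two-sided sign-flip permutation p of 0.03125, the smallest 6 pools can give. In microglia of 4000 to 12000 raw UMIs it was 0.964 points with 4 of 6 pools positive (exact permutation p = 0.65625), and after thinning 0.116 points (exact permutation p = 0.8125). The median raw total of Ildr2-positive cells was 7373 to 8290 UMIs over the pools, against 6273 to 7025.5 in negative cells.

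Aged microglia with Ildr2 above 0 were set against those at 0 in the same pools, gene by gene. Over all cells limma with the pool as a block called 1491 of 8889 genes (16.8%), 1432 of them higher (16.1%) and 59 lower (0.664%). Among the largest were Incenp, a chromosomal passenger gene (0.61), Rxrg, a retinoid receptor (0.54), Ndst1 (0.53), the lipid carrier Apoe (0.53), Zbtb41 and Apbb1, and among the lower ones the neutrophil genes S100a9 (-1.22) and S100a8, the secreted Enpp2 (-1.16), the choroid plexus gene Ttr (-1.16), Car2 and S100a6. In cells of 4000 to 12000 raw UMIs only 2 of 8851 genes were called (0.0226%), Adamts1, a matrix protease (-0.39, limma adjusted p = 0.0424), and the chemokine gene Ccl4 (-0.26, limma adjusted p = 0.0464). None of the 12 genes named above was called there, and Apoe was 0.26 (limma adjusted p = 0.691). In those cells none of 16 homeostatic, 16 interferon or 19 disease-associated genes was called, with medians of -0.02, 0.13 and 0.00 against 0.03 for all genes. Neither Adamts1 nor Ccl4 was called on the mean of log2(value + 1) per cell. In the 6 young pools, over cells of all depths with 217 Ildr2-positive cells, 9 of 8792 genes were called (0.102%).

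Microglia with Col6a3 above 0 were different, and part of the difference remained at matched depth. Over all aged cells limma called 328 of 8871 genes (3.7%), 244 higher (2.75%) and 84 lower (0.947%). In cells of 4000 to 12000 raw UMIs, with 412 Col6a3-positive and 2803 negative cells, it called 69 of 8849 (0.78%), 21 higher (0.237%) and 48 lower (0.542%), and 51 of those 69 were also called over all cells. Median depths still differed a little, at 7109 to 8053.5 raw UMIs over the pools in positive and 7160 to 7650 in negative cells. The per-cell log scale, which a few cells with very high values move less, called 60, and 44 genes were called on both scales. Among these were the mitochondrial genes mt-Nd4 (0.23, limma adjusted p = 0.000611), mt-Nd2 (0.22, 0.00251) and mt-Cytb (0.16, 0.0271). Each was higher in the positive cells in 6 of 6 pools, but over all cells the differences were -0.06, -0.11 and -0.18. The cell sets were not matched on mitochondrial RNA, and its part in the other differences was not tested.

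Homeostatic genes, which mark resting microglia, were higher in the Col6a3-positive cells. At matched depth 5 of 16 were called higher, where 0.237% of all genes were, and none lower. Their median difference was 0.14 against 0.02 for all genes. Fcrls, an Fc receptor-like gene, was 10.6, 10.4 and 11.3 in the positive cells of the aged control pools and 9.39, 7.91 and 9.12 in their negative cells. In the antibiotic pools it was 10.6, 8.75 and 11.2 against 8.52, 6.94 and 7.84. It was higher in 6 of 6 pools, by 0.34 on the log2 scale (SE 0.0433, limma adjusted p = 1.41e-05). The purinergic receptor gene P2ry12 was 12.6 against 10.7 on average, higher in 6 of 6 pools (0.23, limma adjusted p = 0.000637). Slc2a5, a fructose transporter (0.25), Selplg, a selectin ligand (0.17), and Sparc, a matrix glycoprotein (0.16), were the others, each higher in 6 of 6 pools (limma adjusted p = 0.0300 to 0.0327). Sparc was not called on the per-cell log scale (limma adjusted p = 0.0838).

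Interferon-response genes were lower in the same cells. Of 15 tested at matched depth, 5 were called lower, where 0.542% of all genes were, and none higher. Their median difference was -0.58. Ifitm3, which restricts virus entry, was 0.206, 0.141 and 0.115 in the positive cells of the control pools and 0.383, 0.498 and 0.398 in the negative cells. In the antibiotic pools it was 0.179, 0.352 and 0.213 against 0.390, 0.488 and 0.5. The difference was -1.02 (SE 0.133, limma adjusted p = 1.41e-05), and the share of cells above 0 was 14.5% against 21.4%. Ifi204 (-1.15), Ifit3 (-1.09), Ifi27l2a (-0.86) and Rtp4 (-0.83) were the others, lower in 6 of 6 pools except Rtp4 in 5 of 6. The share above 0 was lower in all 6 pools for each of these 5 genes.

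Of 17 disease-associated genes, 4 were called lower, where 0.542% of all genes were, and none higher, with a median of -0.20. Apoe, the lipid carrier that marks this state, was 4.38, 5.92 and 5.14 in the positive cells of the control pools and 13.7, 12.9 and 10.5 in the negative cells. In the antibiotic pools it was 4.18, 11.6 and 9.53 against 12.8, 18.0 and 16. The difference was -1.13 (SE 0.0782, limma adjusted p = 9.69e-12), yet the share of cells above 0 for Apoe was close, 69.2% against 73.1%, and higher in the positive cells in 2 of 6 pools. Spp1, or osteopontin (-1.94), the receptor kinase gene Axl (-1.0) and Cd52 (-0.33) were the others. Spp1 was above 0 in 2.69% of positive and 4.23% of negative cells and was not called on the per-cell log scale (limma adjusted p = 0.296), where Axl was called (adjusted p = 0.00739) and Cd52 was not (adjusted p = 0.0558). Cst7, Lpl and the other 11 genes were not called.

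**Figure D5:**
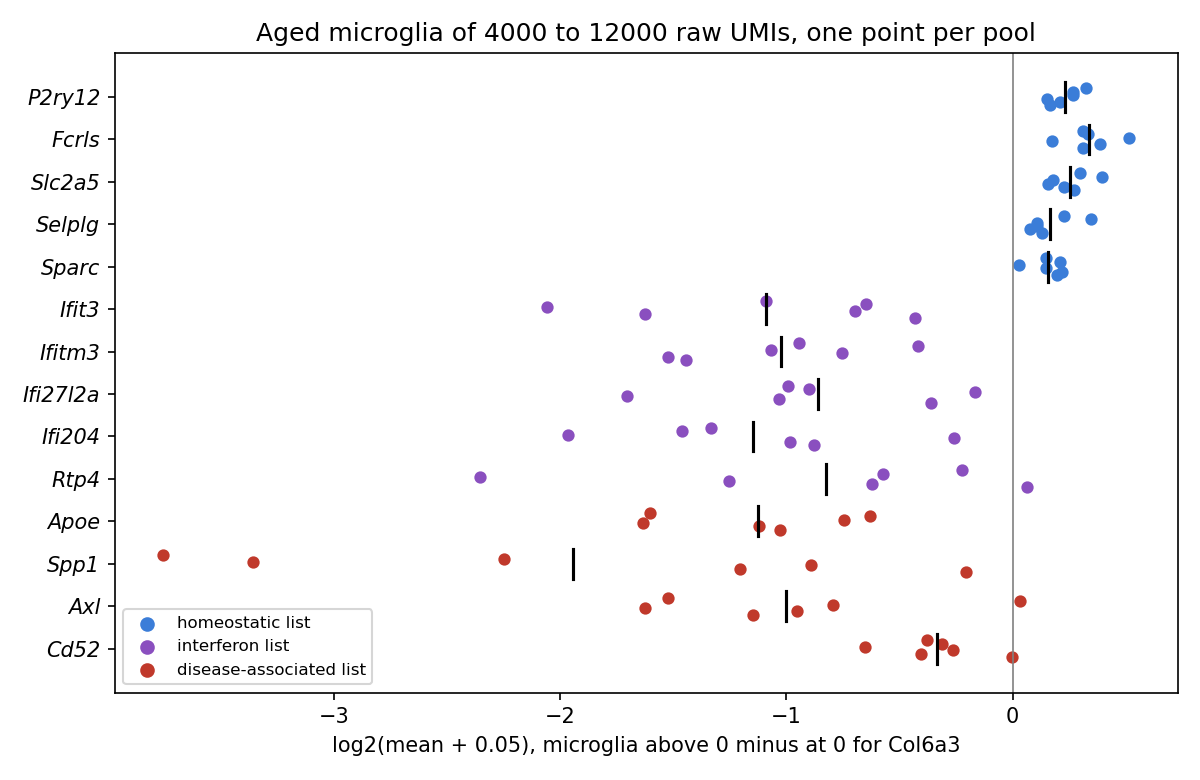
Difference in log2(mean SCT value + 0.05) between Col6a3-positive and Col6a3-negative aged microglia of 4000 to 12000 raw UMIs (x axis) for the called genes of 3 lists (y axis). Each point is 1 of 6 aged pools, the black bar is their mean, and colours give the list. Fcrls, P2ry12, Slc2a5, Selplg and Sparc are to the right of 0 in 6 of 6 pools, and Apoe and the interferon genes Ifit3, Ifitm3, Ifi27l2a and Ifi204 to the left in 6 of 6.

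The largest differences over all cells were not those at matched depth. By the rule for named genes they were the stress-induced Gdf15 (0.83), Ddit4 (0.76) and Osgin1 (0.72), the platelet glycoprotein gene Gp9 (0.70), Gm26735 (0.68) and Riok2 (0.61), and, among the lower, Spp1 (-1.92), the NADPH oxidase gene Cybb (-1.49), Enpp2, Fxyd5, Vim and S100a9. At matched depth Gp9 (0.53), Riok2 (0.56), Spp1 and Cybb (-1.21) were still called by limma. In cells of cluster 0 at matched depth 57 genes were called, and 56 of the 69 were called there as well. In the 6 young pools, over cells of all depths with 108 Col6a3-positive cells, only 6 genes were called (0.0683%), all lower. Depth was not matched there: pool medians were 7079.5 to 8142 raw UMIs in positive and 6390 to 7165.5 in negative cells. Homeostatic differences were above 0 there in 16 of 16 cases (median 0.14) and interferon differences in 1 of 11 (median -0.37), none of them called. No share over all genes is set beside these counts, and nothing is read from them. Markers of other cells did not pass as higher in the aged Col6a3-positive set: of 10 fibroblast genes 2 passed the filter at matched depth and neither was called. Hemoglobin genes, which come from red blood cells, were lower (Hbb-bs -1.46, limma adjusted p = 0.000457, in 5 of 6 pools), but not in cluster 0 (-0.09, limma adjusted p = 0.857) or on the per-cell log scale (adjusted p = 0.706). In cluster 0 Apoe was -1.12 and Fcrls 0.33, both still called by limma.

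Surface antibodies read on the same cells gave few differences. With Ildr2 above 0, edgeR's quasi-likelihood test on summed tags called 1 of 34 antibodies (2.94%), the fractalkine receptor CX3CR1 (log2 0.24, adjusted p = 0.0167, higher in 5 of 6 pools, 21.7 against 18.0 tags per cell). With Col6a3 above 0 it called 4 (11.8%), 3 higher (8.82%) and 1 lower (2.94%). SIRPa, a receptor for the signal CD47, was 0.30 higher (adjusted p = 0.00285), CX3CR1 0.29 and Siglec-H 0.24 higher, and the integrin CD11c was -0.67, each in 6 of 6 pools. At matched depth none was called for Ildr2, with 3 at an unadjusted p under 0.05. For Col6a3 the calls by edgeR were then CD11b (-0.22), CD44 (-0.37), CD45 (-0.18) and CD25 (-0.42). None of the 4 called over all cells was called there: CD11c was -0.57 (edgeR adjusted p = 0.0555), SIRPa 0.09 (0.245), Siglec-H 0.08 (0.447) and CX3CR1 0.04 (0.953). Over all cells CD11b was 0.017 and CD45 -0.019. CD25, CD44 and CD11c had only 0.265, 0.725 and 0.655 tags per positive cell over all cells.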

How the data were processed

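Single-cell RNA and surface antibody tags were read from 12 pools of brain immune cells. The authors deposited SCT-corrected values (unit score, whole numbers that are not raw counts), raw antibody tag counts and each cell's raw UMI count. Cell Ranger 3.0.2, Seurat 3.0.1 and the mm10 build are named in the submitters' processing notes. Their cell types were used, 34 other metadata columns were not used here, and doublet treatment is not given in the sources used here. Raw totals per pool were 5745242 to 13742781 UMIs, and antibody tags 428724 to 4052945.

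SCT values were averaged per pool and cell type. Genes with a mean of at least 0.05 were tested with limma 3.58.1 (trend) on log2(mean + 0.05) over all 12 microglia pools, with Benjamini-Hochberg adjustment and a threshold of 0.05. Cells above and at 0 were compared within aged pools with the pool as a block, over all microglia and over those of 4000 to 12000 raw UMIs. Antibody tag counts were tested with edgeR 4.0.16 (quasi-likelihood), with DESeq2 1.42.0 as an alternative. Other values had exact two-sided permutation tests. Thinning drew each cell's SCT values down to a total of 4000 without replacement (seed 11). Intervals are exact (Clopper-Pearson) at 95% and limits for 0 use 3 counts. The steps were tested on simulated data, where 99.5% of genes changed 2-fold were recovered for age, 97.5% for the Ildr2 sets and 91.0% for the Col6a3 sets. Unchanged genes called there numbered 14, 6 and 6. The simulated cell sets had equal depth, unlike the real ones, and smaller changes were not simulated. Pools hold cells of several mice, and p-values measure the spread between pools.

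The genes and gene lists were chosen with earlier results of these data known. Named genes of the cell sets were the 6 largest called differences in each direction among genes changed the same way in 6 of 6 pools, and those of the likeness the 5 with the highest Pearson's r. Some genes these rules name are not reported here. The age test planned for Ildr2 and Col6a3 in antibiotic microglia is not reported, since the choice of the genes names no arm. The other named genes come from lists, except Adamts1, Ccl4, Hbb-bs, the mitochondrial genes and the neighbours in rank, which were chosen after their values were seen. Fewer cells of a type and less RNA per cell cannot be told apart in pool sums. Sequences are from RefSeq.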

Additional observations from a re-analysis of the deposited data

Results flagged for a closer look

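Of 10 groups of 6 pools checked for a pool far from the others, 1 stood apart, and about 1 group in 20 would by chance. In aged antibiotic pool 3 the share of Col6a3-positive cells was 8.07 percentage points higher among Ildr2-positive than among Ildr2-negative microglia. The next highest pool was at 2.92 points. Without this pool the mean fell from 2.74 to 1.67 points, with 5 of 5 pools above 0 (exact permutation p = 0.0625, the smallest 5 pools can give).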

How the results depend on the processing

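The count of genes called with age, 539, was 358 with only antibiotic pools fitted, 238 in cells of 6000 to 8000 raw UMIs, 898 in cluster 0, and 271 to 542 with 1 pool left out, the lowest without aged antibiotic pool 2. Replicate numbers did not pair the samples (correlations of -0.095 to 0.109). With a replicate block 563 genes were called.

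The antibiotic effects, none of them called, changed sign in places. In cells of 6000 to 8000 raw UMIs that of Col6a3 was 0.035 in aged pools, 0.0059 averaged over ages and 0.059 for the difference between ages. Leaving out 1 pool gave -0.050 to 0.22 for Ildr2 in young pools and -0.011 to 0.27 for its difference between ages.

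For Ildr2-positive cells the 1491 calls became 232 with no filter, 241 with no replicate block, 3376 on the per-cell log scale, 2 at matched depth on either scale or in cluster 0, 0 in cells of 6000 to 8000 raw UMIs, and 639 to 1252 with 1 pool left out (639 without aged antibiotic pool 2). For Col6a3-positive cells the 328 calls became 20 with no filter, 98 with no replicate block, 852 on the per-cell log scale, 69 at matched depth, 60 at matched depth on the per-cell log scale, 57 in cluster 0, 27 in cells of 6000 to 8000 raw UMIs and 168 to 367 with 1 pool left out. Signs changed for S100a8 in Ildr2 sets (0.0025 at matched depth, 0.0019 on the per-cell log scale there, 0.0044 in cluster 0), for Apoe there in cells of 6000 to 8000 raw UMIs (-0.23), and in Col6a3 sets for Gp9 in those cells (-0.011) and S100a9 on the matched per-cell log scale (0.0023).

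Antibodies called for Ildr2 were 4 with DESeq2, 3 with no replicate block, 0 at matched depth and 0 to 5 with 1 pool left out, and for Col6a3 1 to 5 with 1 pool left out. The co-detection difference was 0.964 at matched depth, 0.116 after thinning, 0.386 in cells of 6000 to 8000 raw UMIs and 1.67 to 3.18 with 1 pool left out. Thinned shares were 2.58% and 16.8% for Ildr2 and 1.11% and 6.63% for Col6a3 in young and aged microglia, and the aged Col6a3 share was 12.8% at matched depth. Alternatives beyond a planned set (cluster 0, 6000 to 8000 raw UMIs, the per-cell log scale and their matched forms) were chosen after seeing the data. Depth limits rare genes: most positive cells rest on a value of 1, and small sets give low means for genes carried by few cells.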
